A study of Mus musculus with 3 samples.

Results

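The integrated stress response and the supply of amino acids were followed through 34 mouse genes, chosen by symbol from a table of 56691 genes. They include 3 eIF2 kinases, ATF4 and its partner transcription factors, and the feedback genes of the response. They also include the enzymes that make serine, asparagine and proline, and amino acid transporters. Every symbol was found, on 35 lines, because Ddit3 stands on a second line of 105 bases that had 0 counts in each library and was left aside. RNA was sequenced from organoids, epithelial structures grown in Matrigel from stomach corpus and kept in proliferating medium, with 1 library in each of 3 groups. The Gpx4 KO-Mist1+ culture carries the genotype label Gpx4 KO and is taken, from the series' design text, to come from mice that were Gpx4F/F;Mist1Cre/ERT2;RFPLSL. The Mist1+ and Mist1- cultures carry the genotype label WT and are likewise taken to come from Mist1Cre/ERT2;RFPLSL mice, so the inducible Cre at the Mist1 locus and the red fluorescent reporter are shared by all 3. Mist1 is a transcription factor of secretory cells, and the mice were about 8 weeks old. The number of mice behind a culture and any tamoxifen given are not in the labels used here, and each title ends in P5.

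When amino acids run short, when misfolded protein builds up, when heme is lacking or when mitochondria fail, a kinase of a small family phosphorylates the initiation factor eIF2. Most translation then slows, while the mRNA of the transcription factor ATF4 is translated better. ATF4 with C/EBP partners switches on genes that make and import amino acids, and with the factor CHOP it also drives genes of stress feedback and cell death. Because ATF4 is controlled largely at translation, its mRNA level is a poor guide to its activity. Amino acid supply also feeds glutathione, the reductant used by the lipid peroxidase GPX4.

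The libraries held 16396693 counts for Gpx4 KO-Mist1+, 16187378 for Mist1+ and 14943918 for Mist1-. With 1 library a group no difference has a replicate check, no test between groups was possible, and every fold compares libraries, not conditions. Gpx4 itself had 2569 counts in the library labelled Gpx4 KO-Mist1+, 1998 in Mist1+ and 4399 in Mist1-, so its count was not lower than in Mist1+, and directions drawn from that library belong to its label. A count over the whole gene does not check a deleted part. Bhlha15, the gene for Mist1, had 370, 580 and 282 counts in the same order. Its level in Gpx4 KO-Mist1+ was 0.63-fold relative to Mist1+ and 1.2-fold relative to Mist1-. Of 16 gastric epithelial markers 15 reached an FPKM of 1, the exception being Muc5ac. The lists of 9 fibroblast, 6 endothelial and 8 smooth muscle and nerve genes each summed to at most 0.67 FPKM, and Cd3e and Itgam were at 0 counts in each library; among 8 leukocyte genes only Cd68, a lysosomal gene, passed 1 FPKM, at 24.4 in Gpx4 KO-Mist1+, 5.06 in Mist1+ and 4.37 in Mist1-, and its part in the results was not tested. Of 7 parietal genes 3 passed, with Atp4b at 0 counts, and of 9 enteroendocrine and tuft genes 0 did. In a bulk library, fewer cells of a type and less RNA per cell cannot be told apart.

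The 34 genes took 67664 counts (0.413% of the library) in Gpx4 KO-Mist1+, 46216 (0.286%) in Mist1+ and 41896 (0.280%) in Mist1-. A gene was counted as apart when its counts, scaled to the library totals and with counts below 3 set to 3, differed at least 2-fold between libraries. In Gpx4 KO-Mist1+ against Mist1+, 12 of the 34 passed 2-fold upward and 0 downward, beside 7.28% and 5.56% of 13048 genes. The 12 became 13 with TMM factors and 15 with the length trend described below removed, but 11 on the log2 scale of FPKM plus 1, where Slc7a5 was at 0.99, and 4 of FPKM plus 5. The shares of all genes higher in these 4 settings were 8.43%, 8.39%, 4.81% and 1.69%. The median log2 fold of the 34 was 0.65, beside -0.11 over all genes, and 30 of 34 were above 0, as were 40.8% of all genes. In Gpx4 KO-Mist1+ against Mist1- 11 were higher and 0 lower (17.9% and 12.2% of all genes), with a median of 0.78 beside 0.11 and 30 of 34 above 0, beside 54.4%. In Mist1+ against Mist1- 1 was higher and 3 were lower (14.5% and 8.35% of all genes), with a median of 0.01 beside 0.19 and 17 of 34 above 0, beside 59.1%. The shares over all genes in these pairs depended on the scaling: with TMM factors 14.4% were higher and 16.4% lower in Gpx4 KO-Mist1+ against Mist1-, and 8.82% and 14% in Mist1+ against Mist1-. Each pair shares a library with each other pair. By level, 27 of the 34 genes were highest in Gpx4 KO-Mist1+, 4 in Mist1+ and 3 in Mist1-, where 30.6%, 36.9% and 32.5% of all genes kept were. The 34 genes reached an FPKM of 1 in at least 1 library, so none was lost to that filter.

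**Figure D1:**
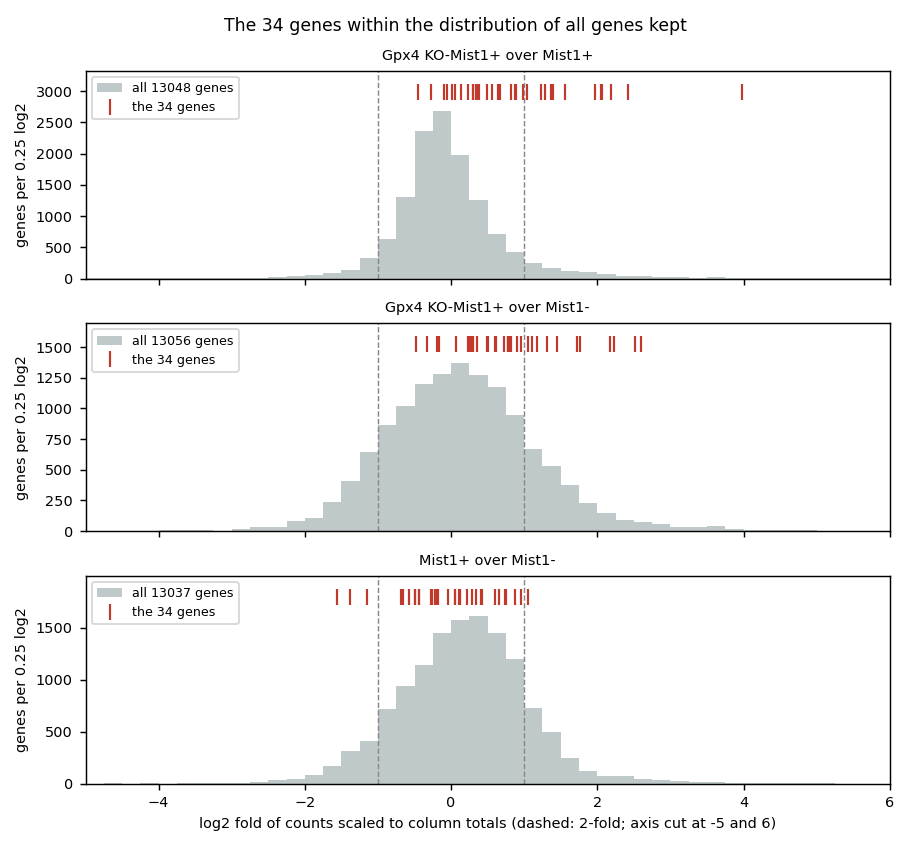
Histograms of the log2 fold over all genes kept (grey, genes per bin of 0.25 log2) with the 34 genes as red ticks above, for each pair of libraries; dashed lines mark 2-fold. In Gpx4 KO-Mist1+ over Mist1+ 12 ticks lie right of the upper line and 0 left of the lower, and in Mist1+ over Mist1- the ticks lie around 0 with a median of 0.01.

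Length has to be read beside the pairs that hold Mist1-. Across genes, which are not independent replicates, exonic length and log2 fold had a Spearman rho of -0.01 in Gpx4 KO-Mist1+ against Mist1+. It was 0.42 when Gpx4 KO-Mist1+ was set against Mist1-, and 0.52 when Mist1+ was. With the length trend removed, 12 of 34 passed 2-fold upward in Gpx4 KO-Mist1+ against Mist1-, beside 13.2% of all genes, and the median was 0.54. Ddit3, Atf5 and Eif4ebp1 then lay above 2-fold in that pair, at log2 folds of 1.43, 1.23 and 1.22. With TMM factors 9 of 34 passed in that pair, Aldh18a1 and Mthfd1l no longer among them. The median of Mist1+ against Mist1- was -0.13 with the length trend removed and -0.25 with TMM factors, so no direction of the 34 genes as a group is read from that pair.

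ATF4 with a C/EBP partner binds a composite element, TGATGNAA in its core letters. These letters, on either strand, stood in a RefSeq promoter (250 bases before the start and 50 after it, GRCm38.p6) of 9 of the 30 genes that have one in the table used. The share is 30%, beside 2.60% of 9248 genes that pass the FPKM filter and 4.51% of 27025 genes in the table. Counted per promoter it was 9 of 39, or 23.1%, beside 3.97% of 32851. The genes were picked for their part in the ATF4 response or amino acid supply, and the letters because ATF4 binds them. Both choices were made with earlier results of these data known. The shares therefore describe the chosen list, and no enrichment is concluded from their excess over all genes. The 9 genes are Trib3, Pycr1, Vldlr, Jdp2, Nupr1, Slc1a4, Pck2, Got1 and Asns, and 7 of them were at least 2-fold higher in Gpx4 KO-Mist1+ than in Mist1+. Slc1a5, Slc7a5, Eif4ebp1 and Klhl24 have no entry. The promoters of the 3 genes with the largest folds are shown whole, 5′ to 3′ on the strand of the gene, with the matching letters in capitals. Trib3 (ENSMUSG00000032715) spans chr2:152337422-152344032 in GENCODE M21. The promoters lie at chr2:152344011-152344310 (minus strand) for Trib3, chr11:120643699-120643998 (minus) for Pycr1 and, for the second of the starts of Vldlr in the table, chr19:27216770-27217069 (plus).
Trib3: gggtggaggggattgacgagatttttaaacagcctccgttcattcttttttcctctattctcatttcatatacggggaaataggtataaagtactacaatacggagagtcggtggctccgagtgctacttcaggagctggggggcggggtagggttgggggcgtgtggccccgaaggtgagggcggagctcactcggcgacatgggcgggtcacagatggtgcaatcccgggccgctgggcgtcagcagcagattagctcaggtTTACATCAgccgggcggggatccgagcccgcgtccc
Pycr1: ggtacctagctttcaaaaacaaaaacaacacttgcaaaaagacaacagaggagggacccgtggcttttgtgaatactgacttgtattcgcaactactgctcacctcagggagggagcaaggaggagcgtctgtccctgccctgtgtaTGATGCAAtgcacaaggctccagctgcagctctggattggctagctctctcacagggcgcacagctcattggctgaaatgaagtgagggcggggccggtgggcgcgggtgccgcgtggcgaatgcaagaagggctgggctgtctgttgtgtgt
Vldlr: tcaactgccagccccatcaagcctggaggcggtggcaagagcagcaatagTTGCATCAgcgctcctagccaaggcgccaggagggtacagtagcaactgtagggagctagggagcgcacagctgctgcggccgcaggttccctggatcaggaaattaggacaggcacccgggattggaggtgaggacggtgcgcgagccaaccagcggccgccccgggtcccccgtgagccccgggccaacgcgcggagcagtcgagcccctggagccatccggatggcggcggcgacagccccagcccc

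In Pycr1 the letters TGATGCAA ran on the strand of the gene from base -103 to -96, counted from the RefSeq start with no base 0. In Vldlr they stood on the other strand, read here as TTGCATCA, from -200 to -193. In Trib3 they were TTACATCA, from base 15 to 22 after the RefSeq start at 152344060, a stretch that lies upstream of the outermost start in GENCODE M21, at 152344032. For the other 6 genes the match is shown with up to 30 bases on each side, to let the letters around it be compared, at chr12:85599353-85599420 (plus) for Jdp2, chr7:126625543-126625610 (minus) for Nupr1, chr11:20332680-20332747 (minus) for Slc1a4, chr14:55540133-55540200 (plus) for Pck2, chr19:43524670-43524737 (minus) for Got1 and chr6:7693195-7693262 (minus) for Asns.
Jdp2: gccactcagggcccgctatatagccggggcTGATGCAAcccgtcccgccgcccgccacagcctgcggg
Nupr1: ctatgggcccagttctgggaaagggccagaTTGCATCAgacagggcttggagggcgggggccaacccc
Slc1a4: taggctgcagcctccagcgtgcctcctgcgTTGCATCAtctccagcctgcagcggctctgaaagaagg
Pck2: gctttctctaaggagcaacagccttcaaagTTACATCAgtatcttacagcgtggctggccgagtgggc
Got1: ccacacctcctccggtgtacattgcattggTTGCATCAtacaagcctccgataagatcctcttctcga
Asns: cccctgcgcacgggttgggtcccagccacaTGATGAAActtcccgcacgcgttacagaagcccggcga

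In Asns the letters were TGATGAAA and in Jdp2 TGATGCAA. In Jdp2 the match lay in the second of 3 starts, from -33 to -26. In Slc1a4 it spanned the start itself, from -4 to 4. In Nupr1, Pck2 and Got1 it began 110, 103 and 102 bases before the RefSeq start. The matches of Nupr1, Vldlr, Jdp2 and Asns lie downstream of the outermost start in GENCODE M21. Those starts are at 126630861, 27216484, 85599027 and 7693254. The 9 genes with the letters had a median log2 fold of 2.05 in Gpx4 KO-Mist1+ over Mist1+, from 0.13 for Asns to 3.98 for Trib3. The 21 genes with a promoter but without the letters had a median of 0.38, and 3 of them (Ddit3, Stc2 and Atf5) were at least 2-fold higher. Genes and letters were chosen with earlier results known, so no link of letters and fold is concluded. In the lists described below, Chac1 (8.97-fold) and Slc7a11 (3.32-fold) hold the letters and were higher, while Atf3 holds them and was at 0.09-fold. Every other gene of those lists with the letters lay between 0.598-fold and 1.31-fold. A match is a string of letters and not a measured binding site, and its absence from 300 bases says nothing of the rest of a gene.

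**Figure D2:**
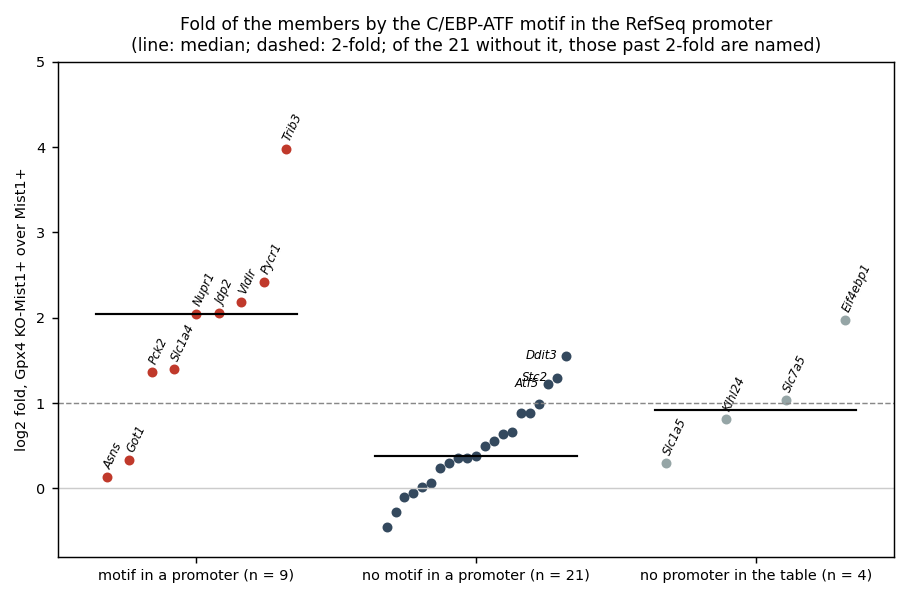
Log2 fold in Gpx4 KO-Mist1+ over Mist1+ of each of the 34 genes (points), set out by whether a RefSeq promoter holds the C/EBP-ATF letters; black lines are medians and the dashed line is 2-fold. Of the 9 genes with the letters 7 lie above 2-fold and Got1 and Asns below it. Of the 21 without them 3 lie above. Genes and letters were chosen with earlier results of these data known, so no link is concluded.

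**Figure D3:**
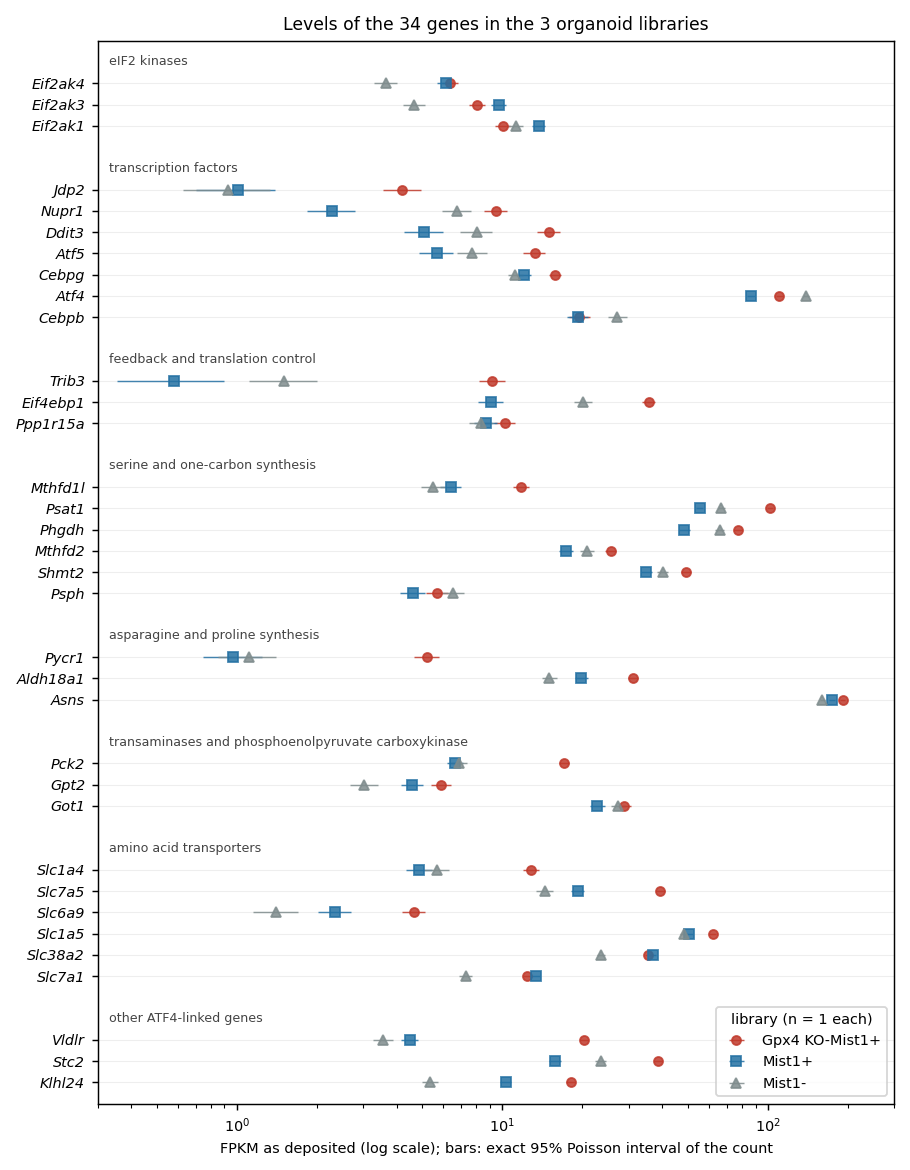
Levels of the 34 genes by role, as FPKM on a log axis, with 1 point per library (red circles Gpx4 KO-Mist1+, blue squares Mist1+, grey triangles Mist1-) and the exact 95% Poisson interval of the count as a bar. The red point is the rightmost for 27 genes, and the 7 exceptions are Eif2ak1, Eif2ak3, Slc7a1 and Slc38a2, highest in Mist1+, and Atf4, Cebpb and Psph, highest in Mist1-.

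The mRNAs of the 3 eIF2 kinases among the 34 genes were lower or nearly level in Gpx4 KO-Mist1+ relative to Mist1+. A further eIF2 kinase, Eif2ak2, belongs to a list described below and is named after its values were seen. It had 10.5 FPKM in Gpx4 KO-Mist1+, 10.2 in Mist1+ and 5.39 in Mist1-. Eif2ak1, the kinase that senses lack of heme, had 10.05 FPKM in Gpx4 KO-Mist1+, 13.7 in Mist1+ and 11.2 in Mist1-. That is 0.733-fold relative to Mist1+ (0.673 to 0.798). Here and below the range after a fold is its exact 95% interval for counting error. Eif2ak1 shares 8.59% of its exonic bases with Aimp2 on the opposite strand, which had 297, 433 and 503 counts in the same order. Eif2ak3, or PERK, the kinase of the endoplasmic reticulum, had 8.04, 9.70 and 4.66 FPKM in the same order, and Mist1+ exceeded Mist1- by 2.08-fold (1.85 to 2.34). This was the single gene of the 34 above 2-fold in that pair, and with the length trend removed its log2 fold there was 0.59, below the 2-fold line; with TMM factors, too, 0 of the 34 passed upward. Eif2ak4, or GCN2, which senses uncharged tRNA, had 6.38, 6.12 and 3.64 FPKM, close together in Gpx4 KO-Mist1+ and Mist1+ at 1.04-fold (0.941 to 1.15).

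Among the transcription factors, 4 of 7 were at least 2-fold higher in Gpx4 KO-Mist1+ than in Mist1+, beside 7.28% of all genes, and Atf4 was not among the 4. Atf4 was the most abundant of the 7, with 111 FPKM in Gpx4 KO-Mist1+, 86.3 in Mist1+ and 139 in Mist1-. Its level in Gpx4 KO-Mist1+ was thus 1.28-fold (1.22 to 1.34) relative to Mist1+ and 0.795-fold (0.762 to 0.828) relative to Mist1-, so it lay between the others; with the length trend removed the log2 fold against Mist1- was 0.01. Ddit3, which encodes CHOP, had 14.95 FPKM in Gpx4 KO-Mist1+, 5.08 in Mist1+ and 8.01 in Mist1-, or 2.94-fold (2.42 to 3.58) and 1.87-fold (1.58 to 2.22) higher than in Mist1+ and in Mist1-. It shares 68 exonic bases with a methionyl-tRNA synthetase gene on the opposite strand. That gene had 2095 counts in Gpx4 KO-Mist1+, 1366 in Mist1+ and 1418 in Mist1-, and its part in the Ddit3 counts was not tested. Atf5, a relative of Atf4 that is also controlled at translation, had 13.25, 5.67 and 7.72 FPKM and was 2.34-fold (1.96 to 2.79) higher than in Mist1+.

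Nupr1, a small chromatin-associated stress protein, showed the lowest point in Mist1+. It had 9.46 FPKM in Gpx4 KO-Mist1+, 2.29 in Mist1+ and 6.73 in Mist1-. The fold was 4.14 (3.29 to 5.25) against Mist1+ but 1.4 (1.2 to 1.65) against Mist1-, and Mist1+ lay 2.95-fold (2.31 to 3.78) below Mist1-. Jdp2, a repressor of the AP-1 family, differed in the same direction against both, with 148 counts in Gpx4 KO-Mist1+, 35 in Mist1+ and 30 in Mist1-. Its folds were 4.17 (2.87 to 6.22) and 4.5 (3.02 to 6.9), and its levels in Mist1+ and Mist1- had overlapping intervals; it shares 165 exonic bases with Gm47863 on the opposite strand, which had 10, 1 and 3 counts. The C/EBP genes differed less. Cebpg, a dimer partner of ATF4, had 15.8, 12.1 and 11.2 FPKM, and Cebpb had 19.6, 19.3 and 27.2; Cebpb shares 20.7% of its exonic bases with Tmem189 on the opposite strand, and the sources used here do not say whether strand was used in counting.

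The feedback genes held the largest fold of the 34. Trib3, a pseudokinase that ATF4 and CHOP induce and that restrains them in turn, had 319 counts in Gpx4 KO-Mist1+, 20 in Mist1+ and 48 in Mist1-, or 9.16, 0.58 and 1.51 FPKM. The fold was 15.7 (10 to 26.1) against Mist1+ and 6.06 (4.46 to 8.39) against Mist1-, and Mist1+ lay 2.6-fold (1.51 to 4.62) below Mist1-. Eif4ebp1, the repressor of cap-dependent translation that is also an ATF4 target, followed the same order. It had 35.6 FPKM in Gpx4 KO-Mist1+, 9.06 in Mist1+ and 20.1 in Mist1-, a fold of 3.93 (3.48 to 4.46) against Mist1+ and of 1.77 (1.61 to 1.94) against Mist1-. Mist1+ lay 2.22-fold (1.94 to 2.55) below Mist1-; with the length trend removed the log2 fold was -0.83. Trib3, Nupr1 and Eif4ebp1 are the 3 genes of the 34 that passed 2-fold downward in Mist1+ against Mist1-. Ppp1r15a, or GADD34, which brings a phosphatase to eIF2 and so ends the response, differed little, at 10.2, 8.67 and 8.34 FPKM.

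**Figure D4:**
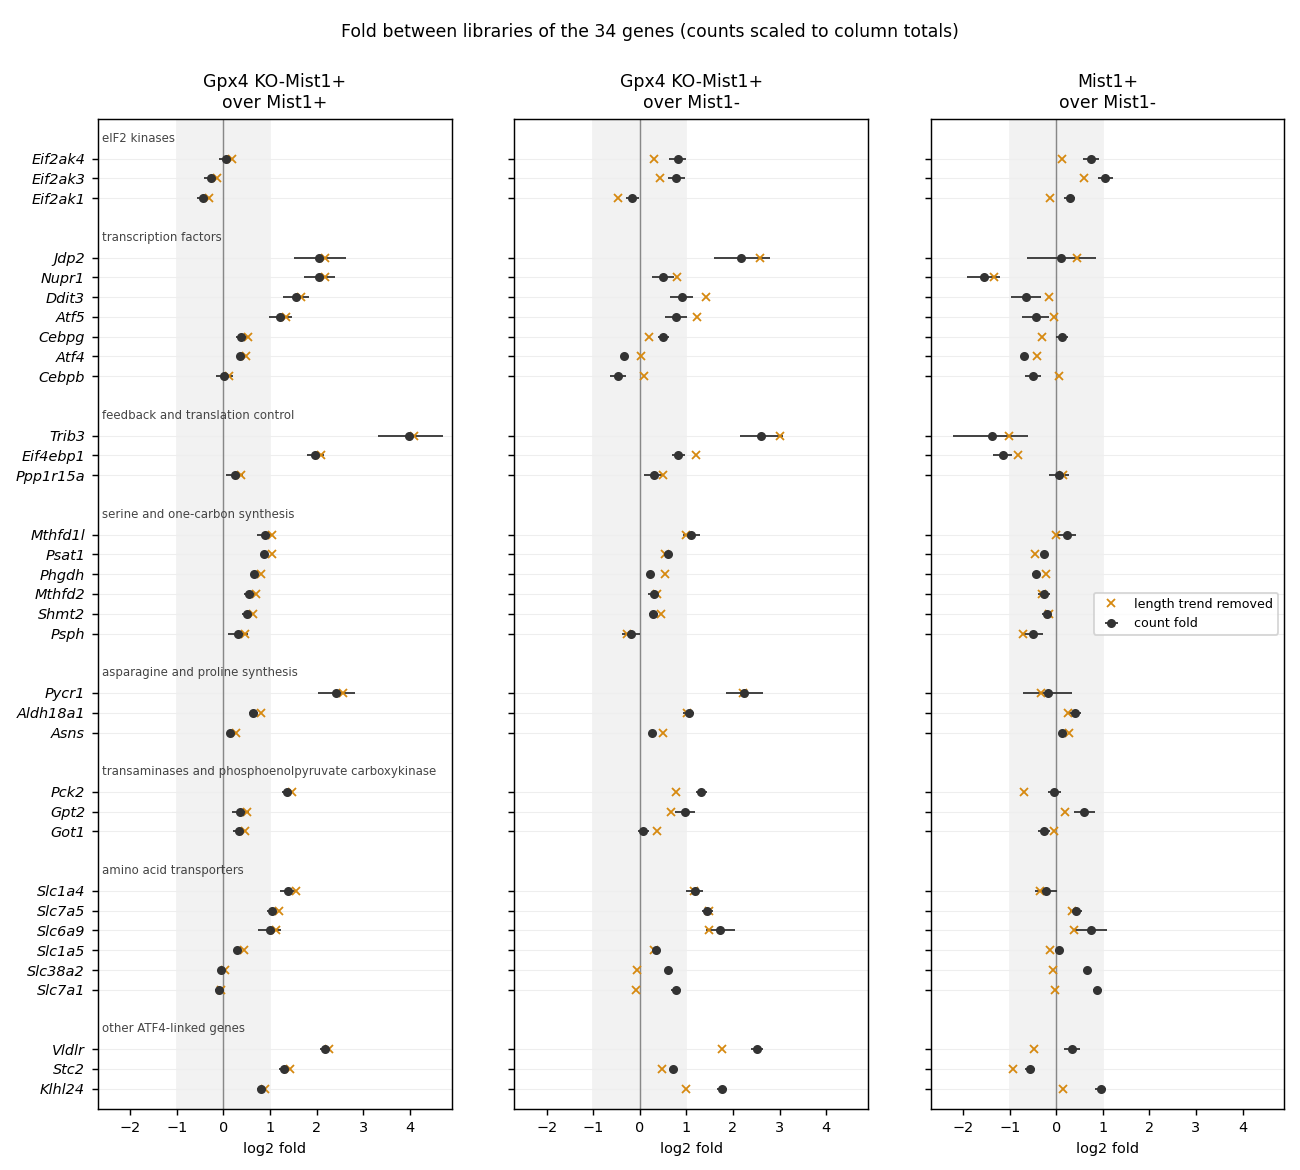
Log2 fold of each of the 34 genes in the 3 pairs of libraries, grouped by role (black points, with exact 95% intervals for counting error) and after removal of the trend with exonic length (orange crosses); the grey band is within 2-fold. In the left panel 12 points lie right of the band and 0 left of it, and in the right panel Eif2ak3 lies right of it and Nupr1, Trib3 and Eif4ebp1 left.

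Genes for serine and for mitochondrial folate metabolism were each higher in Gpx4 KO-Mist1+ than in Mist1+, but none reached 2-fold: their 6 log2 folds ran from 0.30 to 0.88 with a median of 0.61. With the length trend removed Psat1 and Mthfd1l passed it, both at 1.03. Phgdh, which takes a glycolytic intermediate into serine synthesis, had 77.1 FPKM in Gpx4 KO-Mist1+, 48.6 in Mist1+ and 65.8 in Mist1-, or 1.59-fold (1.5 to 1.68) and 1.17-fold (1.11 to 1.23). Psat1, the transaminase of the next step, had 102, 55.5 and 66.9 FPKM and 1.84-fold (1.77 to 1.91) and 1.53-fold (1.47 to 1.59). Psph, the phosphatase that releases serine, was the exception to the order, with 5.69, 4.61 and 6.51 FPKM and its highest level in Mist1-; it shares 10.4% of its exonic bases with Cct6a on the opposite strand, which had 3365, 4920 and 5177 counts. The mitochondrial enzymes that pass the carbon unit of serine to folate were each highest in Gpx4 KO-Mist1+. Shmt2 had 49.2, 34.9 and 40.2 FPKM, and Mthfd2 had 25.6, 17.4 and 20.8. Mthfd1l, which releases formate from the mitochondrion, had 11.8, 6.39 and 5.48 FPKM and passed 2-fold against Mist1-, at 2.15 (1.9 to 2.44).

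Proline synthesis and asparagine synthesis came apart. Pycr1, the last enzyme of mitochondrial proline synthesis, had 335 counts in Gpx4 KO-Mist1+, 62 in Mist1+ and 65 in Mist1-, or 5.19, 0.97 and 1.11 FPKM. It was 5.33-fold (4.06 to 7.11) and 4.7-fold (3.59 to 6.23) higher, and the intervals of Mist1+ and Mist1- overlapped. Aldh18a1, which makes the proline precursor from glutamate, had 31.0, 19.9 and 15.04 FPKM, or 1.56-fold (1.46 to 1.67) and 2.06-fold (1.91 to 2.23). Asns, asparagine synthetase, is a much used reporter of amino acid lack and was the most abundant of the 34 genes in every library. It had 192 FPKM in Gpx4 KO-Mist1+, 175 in Mist1+ and 161 in Mist1-, and its log2 fold was 0.13 against Mist1+ and 0.25 against Mist1-. It was therefore high in each library and nearly level between them, and its promoter holds the composite letters shown above.

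Pck2, the mitochondrial carboxykinase that makes phosphoenolpyruvate, had 17.1 FPKM in Gpx4 KO-Mist1+, 6.65 in Mist1+ and 6.86 in Mist1-. The folds were 2.57 (2.37 to 2.79) and 2.49 (2.3 to 2.71), and Mist1+ and Mist1- had overlapping intervals. With the length trend removed the log2 fold against Mist1- was 0.77, no longer 2-fold. The transaminases were within 2-fold in each pair: Gpt2, which moves nitrogen between alanine and glutamate, had 5.89, 4.59 and 3.02 FPKM, and Got1, which does so for aspartate, had 28.8, 22.8 and 27.4.

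The transporters split as well. Slc7a5, the light chain of the exchanger that brings in leucine and other large neutral amino acids, had 39.4 FPKM in Gpx4 KO-Mist1+, 19.3 in Mist1+ and 14.4 in Mist1-, or 2.04-fold (1.91 to 2.19) and 2.73-fold (2.52 to 2.96) higher. Slc1a4, an exchanger of alanine, serine and cysteine, had 12.8, 4.86 and 5.66 FPKM, with 2.63-fold (2.31 to 3.01) and 2.26-fold (1.99 to 2.58). Its paralog Slc1a5, the main glutamine exchanger of many growing cells, was more abundant, at 62.0, 50.4 and 48.5 FPKM, and differed less, at 1.23-fold (1.17 to 1.29) and 1.28-fold (1.22 to 1.34). Slc6a9, a glycine transporter, stood just below the 2-fold line against Mist1+, with 4.65, 2.34 and 1.41 FPKM and 1.98-fold (1.67 to 2.37), and was 3.31-fold (2.67 to 4.13) higher than in Mist1-. It shares 27.8% of its exonic bases with Ccdc24 on the opposite strand, which had 3 counts in Gpx4 KO-Mist1+, 2 in Mist1+ and 0 in Mist1-. The remaining pair did not follow. Slc38a2, a sodium-coupled importer of small neutral amino acids, had 35.5, 36.9 and 23.5 FPKM. Slc7a1, an importer of arginine and lysine, had 12.45, 13.4 and 7.28 FPKM, with 0.931-fold (0.88 to 0.986) against Mist1+ and 1.71-fold (1.6 to 1.83) against Mist1-. Both have long transcripts, and with the length trend removed their log2 folds against Mist1- were -0.05 for Slc38a2 and -0.09 for Slc7a1.

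The genes tied to ATF4 outside these roles were each higher in Gpx4 KO-Mist1+ than in both other libraries. Vldlr, a receptor for lipoproteins, had 20.4 FPKM in Gpx4 KO-Mist1+, 4.49 in Mist1+ and 3.56 in Mist1-, or 4.54-fold (4.19 to 4.92) and 5.73-fold (5.23 to 6.29); against Mist1- the log2 fold was 2.52, and 1.77 with the length trend removed. Stc2, a secreted glycoprotein, had 38.7, 15.8 and 23.5 FPKM, or 2.45-fold (2.29 to 2.61) and 1.65-fold (1.55 to 1.74). Both are also known to respond to lack of oxygen. Klhl24, an adaptor of a ubiquitin ligase, had 18.1, 10.3 and 5.33 FPKM; its fold was 1.76 (1.66 to 1.87) against Mist1+ and 3.39 (3.14 to 3.67) against Mist1-, with a log2 fold of 1.76 in the second pair, and 1.001 once the length trend was removed.

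The rest of the pathway was described by lists that leave out the 34. Of 20 other ATF4 targets and stress genes 19 passed the filter. In Gpx4 KO-Mist1+ against Mist1+ 9 were at least 2-fold higher and 1 was lower, with a median log2 fold of 0.97. Over all genes in that pair 7.28% were higher and 5.56% lower, with a median of -0.11. Adm2, a peptide hormone gene, had 192 counts in Gpx4 KO-Mist1+, 8 in Mist1+ and 32 in Mist1-, a fold of 23.7 (11.8 to 55.7) against Mist1+. Ero1a, an oxidase of the endoplasmic reticulum, had 465 FPKM in Gpx4 KO-Mist1+, 20.8 in Mist1+ and 35.0 in Mist1-, or 22.3-fold (21.3 to 23.4). Chac1, which degrades glutathione, had 7.79, 0.87 and 2.33 FPKM, or 8.97-fold (5.82 to 14.5). Cth, named after its values were seen, which makes cysteine from cystathionine, was at 15.4, 6.49 and 6.91 FPKM, or 2.37-fold (2.06 to 2.72). Against these, the stress factor gene Atf3 had 3.17, 35.25 and 21.3 FPKM and was the 1 gene at least 2-fold lower. It was 11.1-fold (9.15 to 13.6) lower than in Mist1+ and 6.73-fold (5.5 to 8.29) lower than in Mist1-. Ero1a, with Ddit4 (5.55-fold, 5.06 to 6.1) and Vegfa (4.05-fold, 3.84 to 4.28) of the same list, is known to respond to lack of oxygen too, and those last 2 were also named after their values were seen; the part of such a response in the values of the 34 genes was not tested. The composite letters stood in promoters of 4 of 17 genes of this list: Chac1, Slc7a11, Herpud1 and Atf3.

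The folate, serine and glycine enzymes outside the 34 mostly lay within 2-fold in Gpx4 KO-Mist1+ against Mist1+. Of 26 that passed the filter, 1 was at least 2-fold higher and 1 lower, and the median was -0.18. Of all genes 7.28% were higher and 5.56% lower, with a median of -0.11, so these counts are not read as a trait of the list. Aldh1l2, the mitochondrial enzyme that oxidises formyl-folate to release NADPH, had 1030 counts in Gpx4 KO-Mist1+, 24 in Mist1+ and 19 in Mist1-. Its level was 8.37, 0.2 and 0.17 FPKM and its fold 42.4 (28.3 to 66.4) against Mist1+, above that of any of the 34 genes; it passed the filter only through Gpx4 KO-Mist1+. Of the cytosolic counterparts, Shmt1 had 17.0, 20.1 and 22.2 FPKM and Mthfd1 had 25.3, 29.1 and 25.9. Fpgs, which traps folates in the cell, was 2.12-fold (1.77 to 2.55) lower than in Mist1+. The thymidylate synthase gene Tyms, used in DNA synthesis, was 1.84-fold (1.7 to 2) lower. Shmt1, Mthfd1 and Tyms were named after their values were seen.

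Among 20 cytosolic aminoacyl-tRNA synthetases, which charge tRNAs and many of which are known ATF4 targets, 0 were at least 2-fold apart in either direction in any pair, and the median against Mist1+ was 0.16. Over all genes 7.28% were higher and 5.56% lower in Gpx4 KO-Mist1+ against Mist1+, with a median of -0.11. The shares were 17.9% and 12.2% in Gpx4 KO-Mist1+ against Mist1-, and 14.5% and 8.35% in Mist1+ against Mist1-. Sars had 49.2, 30.2 and 40.7 FPKM, or 1.63-fold (1.55 to 1.71), and Cars was at 1.68-fold (1.55 to 1.81), while Hars and Farsa were 1.6-fold (1.46 to 1.76) and 1.57-fold (1.4 to 1.75) lower. The letters of the composite element stood in 5 of the 13 promoters of this list (38.5%), those of Aars, Gars, Iars, Tars and Yars, whose folds against Mist1+ ran from 0.846 for Aars to 1.3 for Gars. Of 17 mitochondrial synthetases 0 were higher and 1 was lower in Gpx4 KO-Mist1+ against Mist1+, with a median of -0.06, and the lower one was Sars2, at 2.23-fold (1.81 to 2.75). Of 25 other amino acid transporters 16 passed the FPKM filter, and the filter shapes their count: the 3 that were at least 2-fold higher passed it only through Gpx4 KO-Mist1+. These were Slc38a3 (4.34-fold, 2.74 to 7.15), Slc7a3 (4.24-fold, 2.77 to 6.71) and Slc1a1 (3.25-fold, 2.52 to 4.25), each below 2 FPKM in every library. Among the 9 below the filter, 3 lay past 2-fold downward on few counts, and they are named after their values were seen. Slc7a8 had 12 counts in Gpx4 KO-Mist1+, 52 in Mist1+ and 13 in Mist1-, or 4.39-fold (2.31 to 9.03) lower than in Mist1+. Slc3a1 had 3, 20 and 6 counts, and Slc6a20a had 7, 16 and 8. No direction of this list is read.

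The translation factors on which the kinases act, with their regulators, lay within 2-fold in Gpx4 KO-Mist1+ against Mist1+. The list held 14 genes for eIF2, its kinase Eif2ak2, its exchange factor eIF2B, their regulators and phosphatase subunits. In Gpx4 KO-Mist1+ against Mist1+ 0 of the 14 were at least 2-fold apart, with a median of -0.22. Of all genes in that pair 7.28% were higher and 5.56% lower, with a median of -0.11. Impact, an inhibitor of GCN2 activation, had 2.56, 4.9 and 2.81 FPKM, or 1.92-fold (1.62 to 2.27) lower than in Mist1+. In Gpx4 KO-Mist1+ against Mist1- 1 of the 14 was at least 2-fold higher, Eif2s3x, and 2 were lower, Eif2b1 and Ppp1ca. The shares over all genes there were 17.9% and 12.2%. In Mist1+ against Mist1- 1 of the 14 was higher, Gcn1, and 0 were lower, beside 14.5% and 8.35%. With the length trend removed the log2 folds of Eif2b1 (-0.73), Ppp1ca (-0.75) and Gcn1 (0.22) lay within 2-fold, and Eif2s3x was at 1.01. Apart from Eif2b1 these genes were named after their values were seen. Of 22 other amino acid enzymes 0 were at least 2-fold apart in Gpx4 KO-Mist1+ against Mist1+, with a median of -0.03, and Odc1, the first enzyme of polyamine synthesis, was 1.97-fold (1.87 to 2.08) lower. Of 23 genes of amino acid sensing and mTORC1 0 were higher and 1 was lower in that pair, with a median of -0.20. That gene was Sesn3, a relative of the leucine sensor Sesn2, with 5.86 FPKM in Gpx4 KO-Mist1+, 12.9 in Mist1+ and 4.4 in Mist1-. It was thus 2.19-fold (2.06 to 2.34) lower against Mist1+ and, on library totals, 1.33-fold (1.23 to 1.45) higher against Mist1-. With the length trend removed its log2 fold against Mist1- was -0.64, so no direction of Sesn3 is read from that pair.

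**Figure D5:**
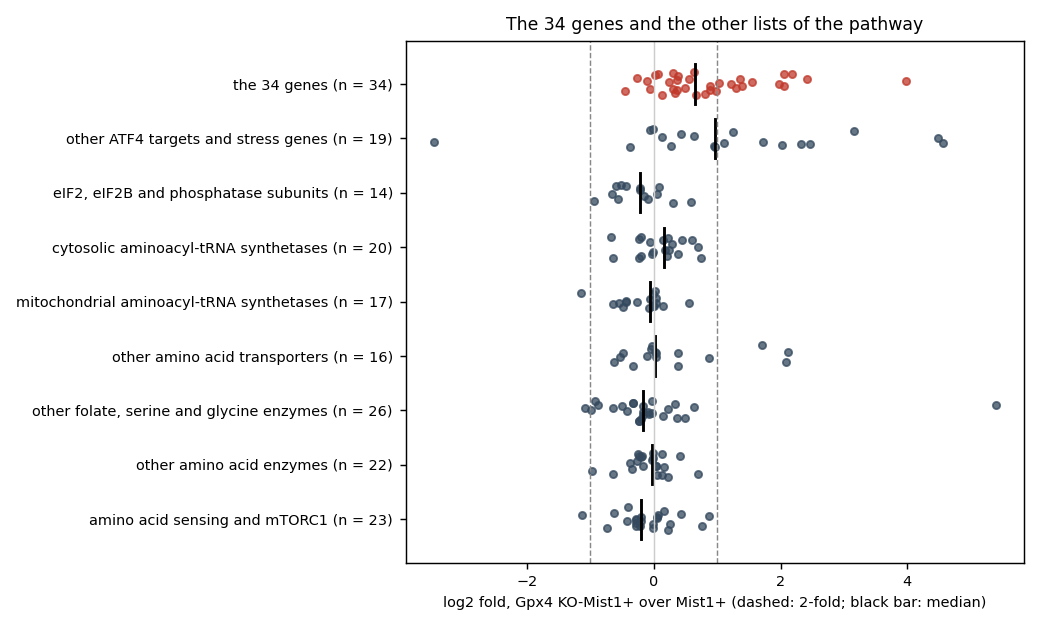
Log2 fold in Gpx4 KO-Mist1+ over Mist1+ of the 34 genes (red) and of the genes of 8 further lists that passed the FPKM filter (dark), 1 point per gene, with the median as a black bar and 2-fold as dashed lines. The medians are 0.65 for the 34 genes and 0.97 for the other ATF4 targets, and between -0.22 and 0.16 for the remaining 7 lists. Over all genes, which are not drawn, the median is -0.11. The point farthest right is Aldh1l2.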

How the data were processed

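Counts and FPKM of 3 libraries, 1 per group, were read from a single deposited table. Per the submitters' processing notes, cutadapt 1.9.1, HISAT2 2.2.1, HTSeq 0.6.1 and the build GRCm38.p5 were used; settings, strandedness and annotation release are not given in the sources used here. Per the file headers, the table gives whole read counts per gene, an exonic length and an FPKM that the authors derived; the FPKM deviated from count over length and column total by at most 2.77% over genes with at least 50 counts. Positions in the table had the same span as GENCODE M21 (GRCm38) for 96.8% of 52073 shared identifiers but the same start and end for 2.83%, so they were not used, and positions are from M21 or RefSeq.

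The filter kept 13351 genes that reached an FPKM of 1 in any library, and folds were left undefined where both counts were at most 3. Folds are of counts over column totals, with a floor of 3 counts per library and exact 95% binomial intervals that cover counting error only; for a transcript of a kilobase the floor is 0.183 FPKM in Gpx4 KO-Mist1+, 0.185 in Mist1+ and 0.201 in Mist1-. No p-value was computed. Python 3.11.15 (statsmodels 0.14.6, scipy 1.17.1, matplotlib 3.10.9, pandas 2.3.3, numpy 2.4.6) and edgeR 4.0.16 under R 4.3.3, for TMM factors only, were used; the fold code was tested on simulated data. Alternatives were log2 of FPKM plus 0.1, 1 or 5, other filters, TMM and median-of-ratios scaling, a lowess length correction (fraction 0.3) and cutoffs of 1.5-fold and 4-fold. The 34 genes, the lists and the motif were chosen with earlier results of these data known. Genes named by rule were the 34 and, from each other list, up to 4 with the largest fold in either direction among those kept. Any other named gene is marked as chosen after its values were seen, apart from markers, genes that overlap a member and genes listed for holding the motif. Gpx4 and Bhlha15 were read to check the labels.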

Additional observations from a re-analysis of the deposited data

How the results depend on the processing

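With 1 library a group and no replicates, depth limits only the counting error, and no replicate could be left out. No paired analysis was possible because each group has 1 library. Another scaling moved the median log2 fold of all genes by over 0.1 in the pairs with Mist1-: in Mist1+ against Mist1- it was 0.19 on library totals, -0.04 with median-of-ratios and -0.07 with TMM factors, and in Gpx4 KO-Mist1+ against Mist1- 0.11, -0.03 and -0.06.

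In Gpx4 KO-Mist1+ against Mist1+ the count of members at least 2-fold higher, 12, was 4 with a pseudocount of 5 and 5 at a 4-fold cutoff. The share of all genes higher fell too, from 7.28% to 1.69% and 2.19%. The median of the members, 0.65, was 0.49 with a pseudocount of 5 and 0.80 with the length trend removed. In Gpx4 KO-Mist1+ against Mist1- the count of 11 was 4 with a pseudocount of 5, 21 at 1.5-fold and 4 at 4-fold. The share of all genes higher went from 17.9% to 2.61%, 30.9% and 4.10% in these settings. The median of 0.78 was 0.51 with a pseudocount of 5, 0.61 with TMM factors and 0.54 with the length trend removed. In none of these settings did a member pass the cutoff downward in either pair. In Mist1+ against Mist1- the median of 0.01 turned to -0.0032 with a pseudocount of 5, -0.11 with an FPKM filter of 5, -0.22 with median-of-ratios, -0.25 with TMM and -0.13 with the length trend removed. The 1 member higher there became 0 with pseudocounts of 1 or 5, both scalings, the length correction and 4-fold, and 7 at 1.5-fold. The 3 lower became 0 with a pseudocount of 5 or at 4-fold and 5 at 1.5-fold. Of all genes 30.9% were higher and 18.4% lower at 1.5-fold in this pair. The shares were 0.966% and 2.97% with a pseudocount of 5, and 2.27% and 0.828% at 4-fold. A pseudocount of 5 FPKM shrinks the fold of low genes by construction; the cause of the other changes was not tested. No member past 2-fold changed sign; 4 of 12, 4 of 11 and 0 of 4 were past 2-fold in every setting other than the changed cutoffs, in the same order of pairs.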
